A study of Mus musculus with 38 samples.

Results

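The comparison described here was between sorted cardiac endothelial cells (ECs) of mice pretreated with empagliflozin (EMPA) and of vehicle-treated mice after acute myocardial infarction (AMI). It rested on 9 of the 38 RNA libraries of the study, 5 labelled EMPA and 4 labelled Control with ischemia and reperfusion, chosen by the names of their columns in the count table. The 4 EC libraries of sham-operated mice were used for reference and entered the same fit. All mice were male C57BL/6 animals of 8 to 12 weeks without diabetes. In the EMPA–Pre-AMI group they took EMPA by mouth at 10 mg/kg/d for 6 weeks, and in the Control-AMI and Sham groups they took the vehicle, 5% dimethylsulfoxide in saline. Both AMI groups then had 30 min of ischemia by ligation of the left anterior descending coronary artery and 2 h of reperfusion, whereas Sham mice had the chest opened only. Each library came from the pooled cells of 2 hearts, so that the spread between libraries is between pools and not between animals. According to the methods, the hearts were digested with collagenase, the ischemic part below the suture was taken, and ECs were sorted as CD45- CD31+ cells. Cells that were CD45- CD31- CD90+ were sorted as fibroblasts from the same digests, so that EC and fibroblast libraries can share hearts. The CD45 antibody listed in the methods is against an allelic form that C57BL/6 mice are not known to carry, so it cannot be told whether the gate removed leukocytes.

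EMPA blocks the sodium-glucose cotransporter SGLT2 of the kidney tubule and lowers blood glucose. Capillary ECs line the vessels of the heart, carry fatty acids to the muscle through Fabp4 and Cd36, and hold the barrier to blood with junction proteins such as VE-cadherin, the product of Cdh5. Cardiac fibroblasts lie beside these capillaries and make the collagens, proteoglycans, matrix proteases and complement proteins of the interstitium. The question put to the comparison was which EC genes differed with EMPA 2 h after reperfusion, with genes that are normally more abundant in fibroblasts kept apart from the others.

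The EC libraries held 1610779 to 2195308 counts in Control-AMI and 1623066 to 1943547 in EMPA–Pre-AMI, and the means did not differ beyond their spread (exact permutation test, two-sided, p = 0.881, where the smallest p that the design allows is 0.00794). A count of 0 allowed up to 3 counts, or 1.37 to 1.86 counts in 1e6 (CPM) in the Control-AMI libraries. Transcripts of mitochondrial DNA took 4.52% to 14.6% of the counts in Control-AMI and 4.55% to 9% in EMPA–Pre-AMI (exact permutation test, two-sided, p = 0.921). The EC label was checked against 16 endothelial markers, whose summed level was 12799 to 18102 CPM in Control-AMI, 16920 to 23593 in EMPA–Pre-AMI and 22293 to 23224 in Sham. In sorted fibroblasts of the AMI groups the same markers summed to 485 to 1653 CPM, below every EC library. The check thus showed endothelial RNA in each EC library, but not how pure the library was. In Control-AMI replicate 1 the fibroblast markers described next summed to 17644 CPM, above its 12799 CPM of endothelial markers.

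Markers of fibroblasts did not stay at a common level in these libraries. The 18 fibroblast markers summed to 17644, 5558, 5306 and 9590 CPM in Control-AMI replicates 1 to 4, and to 1943, 2924, 1522, 1659 and 1918 CPM in EMPA–Pre-AMI replicates 1 to 5. Every Control-AMI library lay above every EMPA–Pre-AMI library, and the Sham libraries, at 1606 to 4120 CPM, lay with EMPA–Pre-AMI. Sorted fibroblasts of the AMI groups held 36924 to 49671 CPM of the same markers. Genes enriched in fibroblasts, as defined below, took 5.3% to 10.7% of all counts in Control-AMI ECs and 3.21% to 4.26% in EMPA–Pre-AMI ECs. The 14 macrophage and monocyte markers were at 33 to 772 CPM in Control-AMI and 23 to 65 in EMPA–Pre-AMI, with the highest level in Control-AMI replicate 3, the library that also had the highest mitochondrial share. The summed cardiomyocyte markers were at 543 to 1808 CPM in Control-AMI and 381 to 877 in EMPA–Pre-AMI, and the mural markers overlapped between the groups (439 to 1032 and 317 to 854 CPM). In bulk samples, more cells of a type in the sort and more RNA per cell cannot be told apart.

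**Figure D1:**
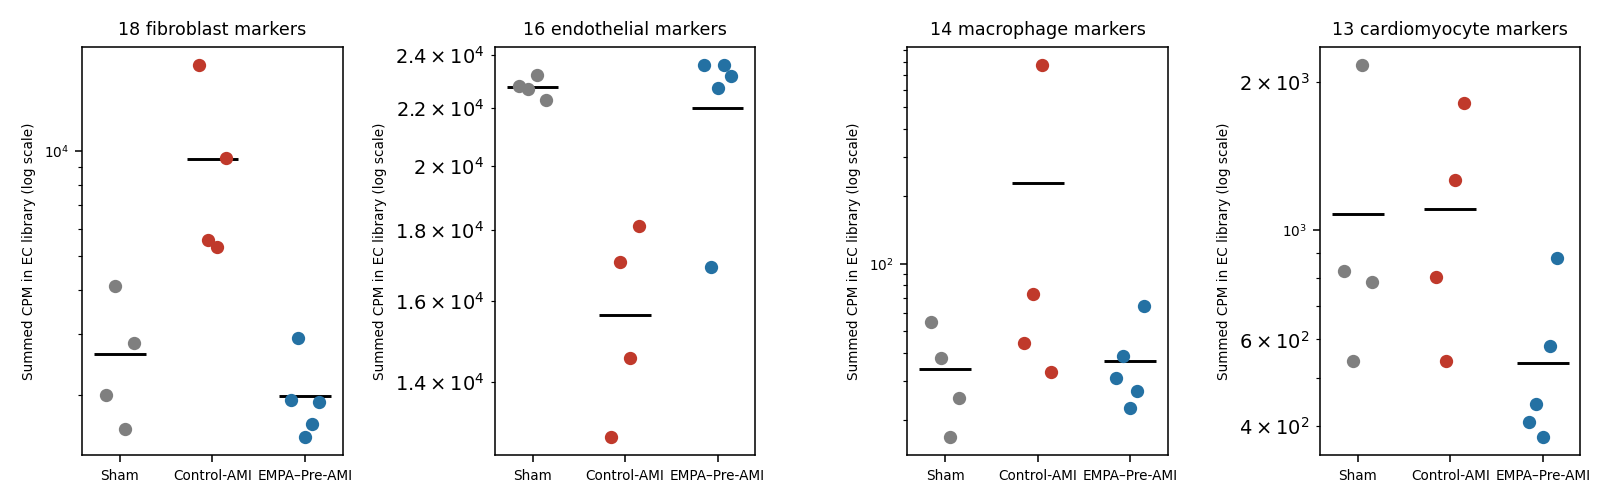
Summed CPM of markers of 4 cell types in each EC library on log axes, with Sham in grey, Control-AMI in red and EMPA–Pre-AMI in blue. Points are libraries and horizontal lines are group means. Fibroblast markers separate the 4 Control-AMI libraries, at 5306 CPM or more, from the 5 EMPA–Pre-AMI libraries, at 2924 or less.

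Of 35682 genes in the table, 10438 had enough counts to be tested. Of these, 274 differed between EMPA–Pre-AMI and Control-AMI ECs (edgeR's quasi-likelihood test, false discovery rate, FDR: <0.05; 2.63%), with 36 higher (0.345%) and 238 lower (2.28%) with EMPA. At an unadjusted p of 0.05, 1274 genes passed. The CPM values of 439 genes (4.21%) did not overlap between the 4 and the 5 libraries, and 207 of the significant genes were among them. The median log2 fold change of all genes tested was 0.02.

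The direction of the change followed the class of the gene. A gene was called fibroblast-enriched when its mean CPM in Sham fibroblasts was over 2 times its mean in Sham ECs, a rule that uses no AMI library. There were 4167 such genes in the table, of which 1173 were tested. Among these, 233 were significant (19.9%), each of them lower with EMPA, with a median log2 fold change of -0.61 over the class. They made up 97.9% of the genes that fell. Among the 9265 other genes tested, 41 were significant (0.443%), 36 higher and 5 lower, and the median was 0.06. Some fibroblast-enriched genes were tested only because they were high in Control-AMI or Sham. In 50 of the 1173, and in 30 of the 233 that fell, no EMPA–Pre-AMI library had 10 counts, and the count of falls includes them.

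The change grew with the enrichment. The medians of the log2 fold change were 0.50 in the 166 genes whose ratio of fibroblasts to ECs in Sham was under 0.03125, 0.23 at ratios of 0.25 to 0.5, 0.08 at 0.5 to 1 and -0.06 at 1 to 2. Above the class limit they were -0.36 at ratios of 2 to 4, -0.95 at 4 to 8, -1.55 at 8 to 16, -2.58 at 16 to 32 and -3.08 in the 69 genes over 32. The share of genes that fell rose over the same steps from 1.6% to 20.8%, 47.3%, 79.7% and 87%. No gene over a ratio of 2 rose. At the limit itself there was no step, since the 50 genes just above it had a median of -0.17 and the 50 just below it a median of -0.27, with none significant in either set. Of the 25 genes over a ratio of 16 that did not pass the test, 24 had a log2 fold change below 0.

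**Figure D2:**
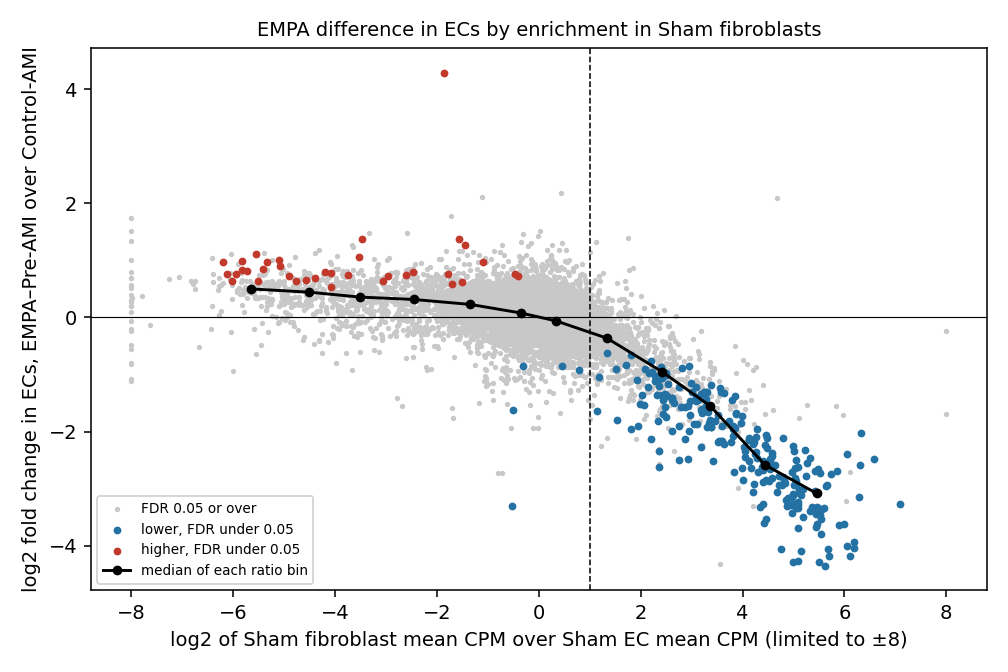
Each point is 1 of the 10438 genes tested, placed by the log2 ratio of its Sham fibroblast to its Sham EC mean CPM (horizontal) and its log2 fold change between EMPA–Pre-AMI and Control-AMI ECs (vertical). Genes higher with EMPA at FDR under 0.05 are red, lower blue and the rest grey, the dashed line is the ratio of 2, and the black line joins the medians, which run from 0.50 at the left to -3.08 at the right.

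The 6 largest falls among fibroblast-enriched genes whose groups did not overlap were in Emilin2, Inmt, Dtx4, Abca6, Myoc and Htra3. Emilin2, Inmt, Dtx4 and Abca6 had at most 3, 5, 6 and 8 counts in any EMPA–Pre-AMI library and so were tested only through their counts in the other groups, which leaves the size of their falls poorly fixed. Emilin2 encodes a glycoprotein of elastic fibers (ENSMUSG00000024053, GRCm39 chr17:71559167-71618973). Its CPM was 41.7, 5.84, 12.7 and 18.7 in Control-AMI replicates 1 to 4 and 1.08, 0.541, 0.565, 0.618 and 1.79 in EMPA–Pre-AMI replicates 1 to 5, with Sham at 1.77, 2.38, 0.973 and 2.08. The log2 fold change was -4.35 ± 0.59 (SE; FDR 0.000927), and each EMPA–Pre-AMI library held between 1 and 3 counts of it. Replicate 1 was the highest Control-AMI library and replicate 2 the lowest, an order that held for many genes of the class. Control-AMI replicate 1 was the highest Control-AMI library in 214 of the 233 genes that fell, and replicate 2 was the lowest in 173. Htra3 encodes a secreted serine protease (ENSMUSG00000029096, GRCm39 chr5:35809367-35837126) and was more abundant, at 511, 65.4, 118 and 319 CPM in Control-AMI and 18.3, 12.4, 20.4, 7.41 and 11.4 in EMPA–Pre-AMI. The groups were apart in each library, and the log2 fold change was -4.17 ± 0.73 (SE; FDR 0.0148). The remaining 4 had log2 fold changes of -4.29 (Inmt, an amine methyltransferase), -4.28 (Dtx4, a ubiquitin ligase), -4.27 (Abca6, a lipid transporter) and -4.18 (Myoc, a secreted glycoprotein). Their Control-AMI replicates 2 and 3 were between 4.09 and 23.4 CPM, and replicates 1 and 4 between 33 and 113.

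**Figure D3:**
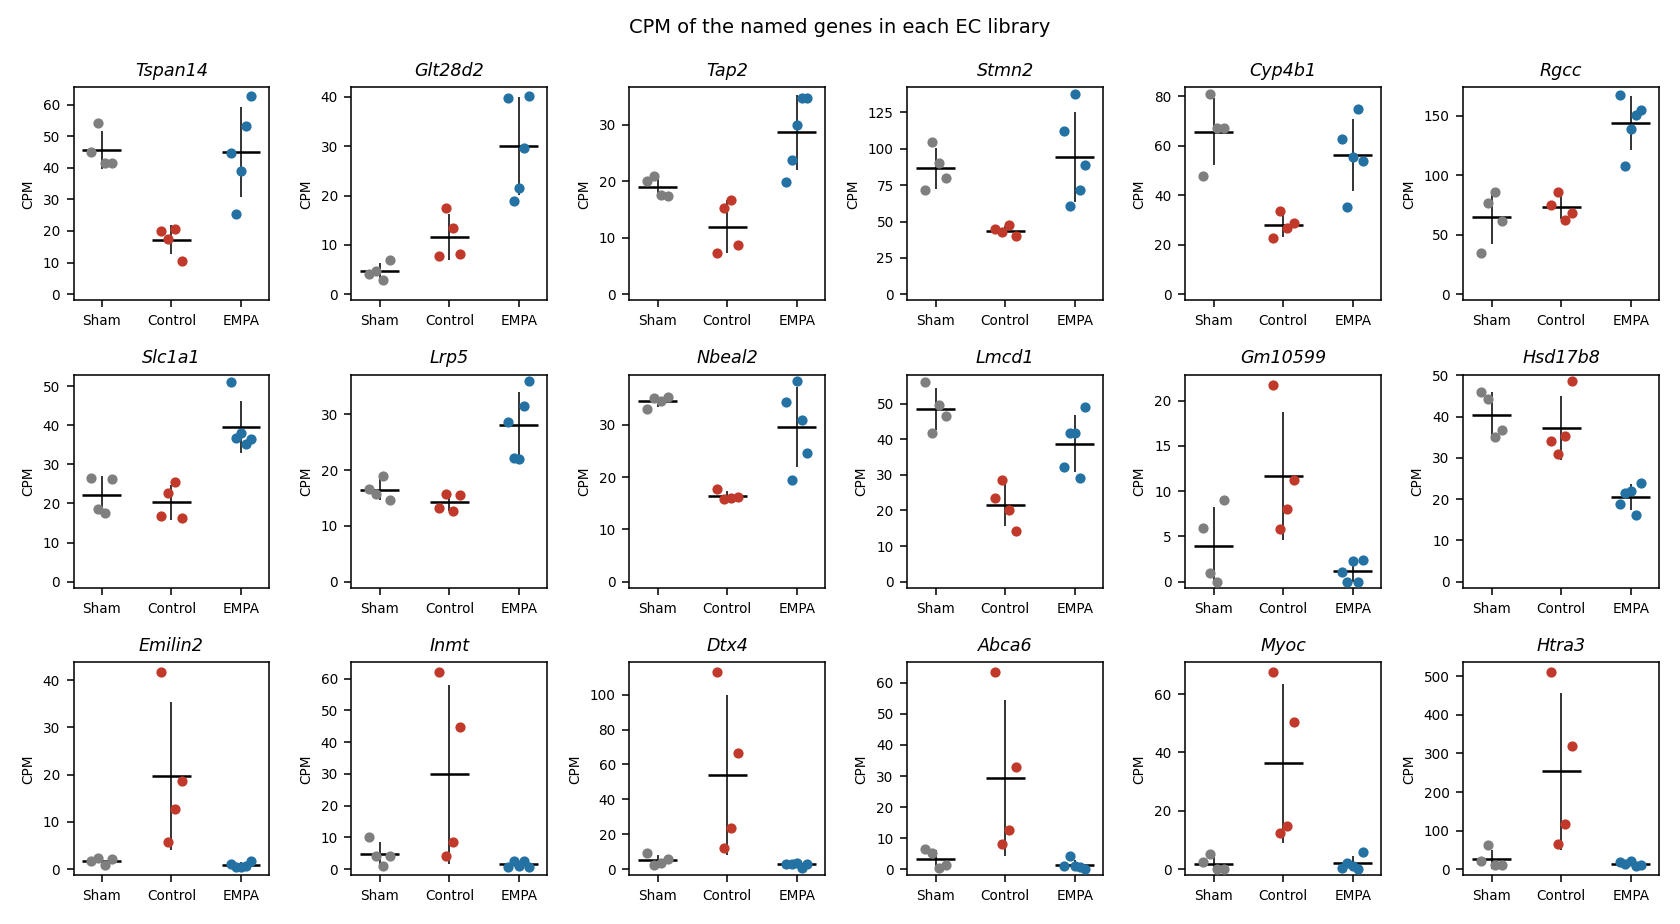
CPM (vertical axes, from 0) of 18 named genes in the Sham (grey), Control-AMI (red) and EMPA–Pre-AMI (blue) EC libraries. Points are libraries, horizontal bars are means and vertical bars are SD. The upper rows hold 10 genes that rose with EMPA, from Tspan14 to Lmcd1, and Gm10599 and Hsd17b8, which fell, and the bottom row holds 6 fibroblast-enriched genes, in which Control-AMI replicate 1 is the highest point.

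The markers that define fibroblasts fell together. Of 18 on the list, 17 were tested, all fibroblast-enriched, and 15 fell, with a median log2 fold change of -2.42. Col1a2, the alpha 2 chain of type I collagen (ENSMUSG00000029661, GRCm39 chr6:4504814-4541555), was at 695, 148, 245 and 334 CPM in Control-AMI and 52.8, 63.8, 40.1, 43.9 and 55.7 in EMPA–Pre-AMI (log2 fold change -2.80 ± 0.40, SE; FDR 0.00489). Dcn, which encodes the collagen-binding proteoglycan decorin (ENSMUSG00000019929, GRCm39 chr10:97315275-97358155), was the most abundant of the falling genes named here and went from 2932 ± 1783 CPM (SD, n = 4) to 559 ± 172 (SD, n = 5). Both genes were lower in each EMPA–Pre-AMI library than in any Control-AMI library. Col6a3, Mfap5 and Serpinf1, which encode a type VI collagen chain, a microfibril protein and the secreted factor PEDF, had log2 fold changes of -3.12, -2.38 and -2.55.

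Among 20 collagen chains tested, 15 of them fibroblast-enriched, 12 fell and none rose, and the median was -1.80. The 12 were the fibrillar chains Col1a1, Col1a2, Col3a1, Col5a1, Col5a2 and Col5a3, the type VI chains Col6a1, Col6a2 and Col6a3, and Col8a1, Col14a1 and Col15a1. All 12 were fibroblast-enriched. Falls made up 2.28% of all genes tested and 19.9% of that class, and 87% of genes at Sham ratios over 32. Whether this list or those below differ from genes of like ratio was not tested. Col5a1 had a log2 fold change of -3.42 ± 0.49 (SE; FDR 0.00328) and Col8a1, a chain of the network collagen of vessel walls, -1.71 ± 0.28 (SE; FDR 0.00327). The 5 collagen chains that were not fibroblast-enriched had a median of 0.28 and none passed.

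Of 27 laminins, nidogens and proteoglycans tested, 17 of them fibroblast-enriched, 12 fell. Vcan, the large proteoglycan versican (ENSMUSG00000021614, GRCm39 chr13:89803431-89890814), was at 174, 67.7, 110.3 and 131 CPM in Control-AMI and at 10.8, 35.1, 24.9, 8.03 and 17.4 in EMPA–Pre-AMI (log2 fold change -2.64 ± 0.38, SE; FDR 0.00310). Ogn, a small proteoglycan, and Fbln1, a fibulin of elastic fibers and basement membranes, had log2 fold changes of -3.38 and -3.12, and Fbln5, a fibulin that is also on the arterial list, of -1.09. The 10 members that were not fibroblast-enriched had a median of 0.11 and none passed. Vcan is also on the list of venous EC genes, of which no other member passed.

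Of 21 matrix proteases and inhibitors tested, 12 were fibroblast-enriched. The proteases Mmp2, Mmp14, Mmp23, Adamts2 and Adamts5 fell, none rose and 16 did not pass, with a median of -0.36 over the 21. The 9 members that were not fibroblast-enriched had a median of 0.26 and none passed. Mmp2, the gelatinase A gene (ENSMUSG00000031740, GRCm39 chr8:93553902-93580049), was at 319, 48.4, 68.2 and 187 CPM in Control-AMI and 19.4, 20.00, 7.35, 11.7 and 17.95 in EMPA–Pre-AMI (log2 fold change -3.34 ± 0.60, SE; FDR 0.0148). Mmp14, the membrane protease that activates Mmp2, changed less (-1.19 ± 0.28, SE; FDR 0.0232), and EMPA–Pre-AMI replicate 2, at 71.9 CPM, overlapped the lowest Control-AMI libraries. Mmp23, a membrane metalloprotease, and Adamts2, which trims the ends of procollagen, had log2 fold changes of -2.62 and -2.12. The inhibitors Timp1 and Timp2 did not pass the test, at -0.92 ± 0.53 (SE; FDR 0.527) and -1.63 ± 0.42 (SE; FDR 0.0851).

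Fibroblast-enriched genes of the complement cascade fell as well. Of 9 complement genes tested, C1ra, C1s1, C3, C4b and Serping1 fell, and the median was -2.15. All 5 were among the 6 fibroblast-enriched members. The 3 members that were not fibroblast-enriched had a median of -0.21 and none passed. C3, the central component of the cascade (ENSMUSG00000024164, GRCm39 chr17:57510964-57535155), was at 913, 256, 263 and 592 CPM in the Control-AMI libraries, 49.5, 76.2, 43.5, 56.2 and 34.1 in those of EMPA–Pre-AMI and 61.4, 109, 25.8 and 22.9 in Sham, with a log2 fold change of -3.28 ± 0.54 (SE; FDR 0.0107). The groups were apart, by over 3 times between the lowest Control-AMI and the highest EMPA–Pre-AMI library. C1ra, a protease of the classical pathway, had a log2 fold change of -2.18 ± 0.30 (SE; FDR 0.00206), Serping1, its inhibitor, of -2.86 and C4b of -2.84. C4b has a near-identical neighbour, C4a, and its reads may be shared with it.

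Growth factor genes split by class. Of 21 genes of the IGF, EGF, PDGF and FGF systems, 8 of them fibroblast-enriched, 6 fell and none rose. They were the ligand Igf1 (-1.85 on the log2 scale), the binding proteins Igfbp4 (-1.43) and Igfbp6 (-1.63), and the receptors Egfr (-3.15), Fgfr1 (-1.16) and Pdgfra, the last of them also a fibroblast marker. Egfr was at 54.9, 14.01, 18.7 and 33.6 CPM in Control-AMI and 4.31, 8.11, 1.13, 0.618 and 2.39 in EMPA–Pre-AMI (FDR 0.0189). In Sham it was at 4.72, 1.43, 0 and 0 CPM, so that Control-AMI stood above both other groups. The 13 genes of these systems that were not fibroblast-enriched had a median of 0.09 and none passed. Pgf, a ligand of the VEGF family and fibroblast-enriched, fell (-0.86 ± 0.23, SE; FDR 0.0474), whereas Vegfa (-0.34 ± 0.33, SE; FDR 0.787) and Vegfb (-0.86 ± 0.30, SE; FDR 0.174) did not pass.

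Further single members of other lists fell, and each of them was fibroblast-enriched. Among 19 genes of oxidant defence, the extracellular enzymes Gpx3 (-3.27) and Sod3 (-1.96) and the endoplasmic reticulum enzyme Gpx8 (-2.27) fell. Among 18 adhesion molecules, the heparan sulfate proteoglycan Sdc2 fell (-2.65 ± 0.37, SE; FDR 0.00246) and the leukocyte ligand Icam1 did not pass (-0.18 ± 0.26, SE; FDR 0.880). Icam1 was at 132, 298, 174 and 203 CPM in Control-AMI and 133, 204, 133, 270.0 and 148 in EMPA–Pre-AMI, which overlapped. Further log2 fold changes were -1.92 for Serpine2, an inhibitor of thrombin, -1.22 for the integrin subunit Itgb5, -1.22 for the prostacyclin synthase gene Ptgis, -1.397 for the interleukin-6 receptor gene Il6ra and -1.47 for the immediate early factor Nr4a3. They were -1.55 for the podoplanin gene Pdpn, -1.900 for the bicarbonate carrier Slc4a4, -2.68 for the endosomal GTPase Rab7b and -1.04 for the small heat shock protein gene Cryab. All 9 fell, each the only member of its list to do so except Rab7b. Of these, Cryab had the lowest fibroblast ratio and a narrow spread, at 41.7, 37.9, 38.1 and 44.8 CPM in Control-AMI and 22.6, 18.4, 15.3, 19.2 and 23.3 in EMPA–Pre-AMI (FDR 0.0207). The values of Itgb5, Serpine2, Slc4a4, Nr4a3 and Cryab did not overlap between the groups, while those of Ptgis, Il6ra, Pdpn and Rab7b did. Il6ra was highest in Control-AMI replicate 3, at 48.1 CPM, the library with the most macrophage marker counts, whose part in its fall was tested only by the fits with marker levels.

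The levels of these genes in ECs were set beside those in the sorted fibroblasts of the same group, by plain CPM. The 18 fibroblast markers were in Sham ECs at a median of 3.90% of their level in Sham fibroblasts, in Control-AMI ECs at 22.6% and in EMPA–Pre-AMI ECs at 4.03%. In Control-AMI the quartiles of the markers were 20.4% and 28.2%. The percentage was lower in EMPA–Pre-AMI than in Control-AMI for 18 of 18. For the 233 fibroblast-enriched genes that fell, chosen for that fall, the medians were 5.71%, 26.7% and 4.88%. The part that fibroblast RNA in the sort, or expression by the ECs themselves, had in these percentages was not tested beyond the fits with marker levels given below.

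**Figure D4:**
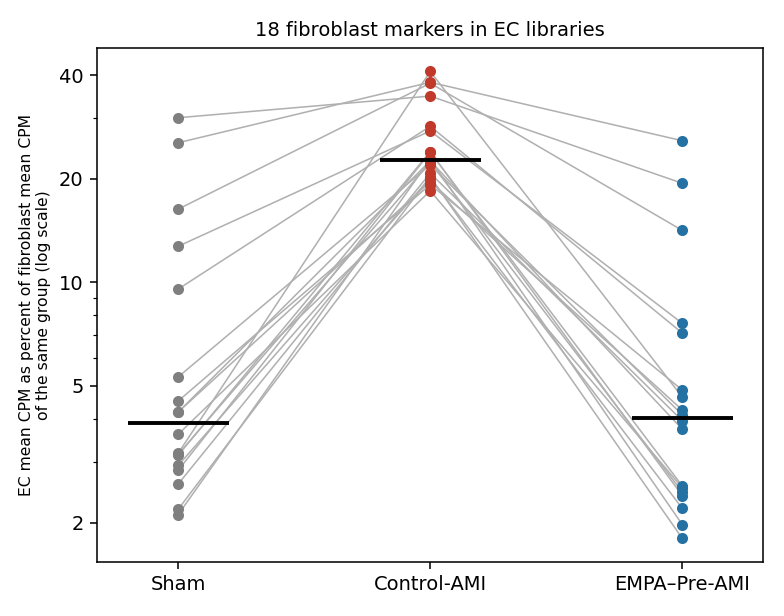
Mean CPM of each of 18 fibroblast markers in EC libraries as a percent of its mean CPM in fibroblast libraries of the same group (log axis), for Sham, Control-AMI and EMPA–Pre-AMI. Grey lines join the same gene and black bars are medians, which are 3.90%, 22.6% and 4.03%.

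No gene passed the test in sorted fibroblasts. Between EMPA–Pre-AMI and Control-AMI fibroblasts, with 4 libraries in each, 0 of 10691 genes were significant in edgeR (0%), with 170 at an unadjusted p of 0.05. The 233 fibroblast-enriched genes that fell in ECs were all tested there, none was significant and their median log2 fold change was -0.03. As examples, the log2 fold change in fibroblasts was -0.04 for C3, 0.02 for Col1a2, -0.04 for Mmp2 and 0.16 for Egfr. The difference between the EMPA effect in ECs and that in fibroblasts was tested in a joint model that treats EC and fibroblast libraries as independent although they can share hearts, and it was significant for 243 of 11615 genes (2.09%), 6 of them higher (0.0517%) and 237 lower (2.04%) in ECs. These included 165 of the 238 genes that fell in ECs and 3 of the 36 that rose. Those genes were chosen on the same EC libraries, which favours them in this test, so these counts are no independent support.

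The 36 genes that rose were mostly genes of ECs, since 34 of them had a Sham fibroblast level under 0.5 times the Sham EC level. Of the 1782 genes tested in that endothelial-enriched class, the 34 made up 1.91%, none fell and the median log2 fold change was 0.30. Tspan14, a tetraspanin that guides the protease Adam10 (ENSMUSG00000037824, GRCm39 chr14:40626016-40689527), was at 19.95, 17.5, 20.7 and 10.6 CPM in Control-AMI and 44.7, 25.4, 39.02, 53.1 and 62.8 in EMPA–Pre-AMI, without overlap (log2 fold change 1.38 ± 0.26, SE; FDR 0.00513). Its Sham libraries, at 44.8, 54.2, 41.4 and 41.6 CPM, lay with EMPA–Pre-AMI. Tap2, which moves peptides into the endoplasmic reticulum for MHC class I, had a log2 fold change of 1.27 ± 0.28 (SE; FDR 0.0148). Glt28d2 rose by 1.37 ± 0.33 (SE; FDR 0.0229), from 7.71, 17.5, 13.4 and 8.09 to 39.8, 18.9, 21.5, 29.7 and 40.1 CPM, and it is related in sequence to Alg13, with which its reads may be shared. The other 7 of the 10 largest rises without overlap ranged from 0.83 to 1.11. They were Stmn2 (a microtubule regulator on the arterial list), Cyp4b1 (a cytochrome P450), Rgcc (a cell cycle regulator of capillary ECs), Slc1a1 (a glutamate carrier), Lrp5 (a Wnt coreceptor), Nbeal2 (a vesicle trafficking protein) and Lmcd1 (a LIM domain cofactor).

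Markers of vessel identity were among the genes that rose. Of 16 endothelial markers, 2 rose, Cdh5 and Fabp4, and 15 had a log2 fold change above 0, with a median of 0.41. Fabp4, the fatty acid binding protein of capillaries (ENSMUSG00000062515, GRCm39 chr3:10268785-10273737), was at 2142, 3068, 3242 and 3762 CPM in Control-AMI and 6333, 3378, 5790, 5441 and 5871 in EMPA–Pre-AMI, where replicate 2 was the single library that overlapped (log2 fold change 0.81 ± 0.18, SE; FDR 0.0148). Cdh5 (ENSMUSG00000031871, GRCm39 chr8:104828231-104871143) was at 334, 503, 553 and 331 CPM in the Control-AMI libraries and at 751, 490.4, 787, 647 and 666 in those of EMPA–Pre-AMI, and again replicate 2 was the lowest EMPA–Pre-AMI library (0.64 ± 0.17, SE; FDR 0.0476). Of 12 capillary genes, Rgcc and Fabp4 rose and all 12 were above 0 (median 0.63). A value above 0 was common to the class, since 1442 of the 1782 endothelial-enriched genes tested had one. The medians were 0.50 in genes with a Sham ratio under 0.03125 and 0.44 at ratios of 0.03125 to 0.0625. Of 11 arterial genes tested, Stmn2, Hey1 and Sox17 rose and Fbln5, fibroblast-enriched, fell. Hey1 is a Notch target (1.06; FDR 0.0232) and Sox17 an arterial transcription factor (0.77; FDR 0.0370). Cxcl12, the chemokine ligand of Cxcr4, rose from 770.2 ± 124 CPM (SD, n = 4) to 1287 ± 347 (SD, n = 5), with overlap. Of the 36 genes that rose, EMPA–Pre-AMI replicate 2 was the lowest EMPA–Pre-AMI library in 26.

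The size of the largest rise could not be fixed. Bacc1 had 0, 1, 2 and 0 counts in the Control-AMI libraries and 13, 0, 21, 19 and 31 in EMPA–Pre-AMI, against 18 to 35 in Sham. The summed counts, 3 and 84, gave a ratio of CPM of 22.1 with an exact interval of 7.32 to 109 that covers counting error only. Bacc1 was named after its values were seen, since its groups overlapped at 0.

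Of the 5 genes that fell without being fibroblast-enriched, Gm10599 and Hsd17b8 did not overlap between the groups. Gm10599, a predicted gene (ENSMUSG00000118458, GRCm39 chr4:42242630-42244913), was at 21.8, 5.84, 8.02 and 11.2 CPM in Control-AMI and 1.08, 0, 2.26, 0 and 2.39 in EMPA–Pre-AMI, with 88 and 10 counts in all (-3.30 ± 0.84, SE; FDR 0.0416). Hsd17b8, an enzyme of mitochondrial fatty acid synthesis (ENSMUSG00000073422, GRCm39 chr17:34245007-34247050), was at 34.02, 30.9, 35.4 and 48.6 CPM in the Control-AMI libraries and at 18.8, 21.6, 22.1, 16.1 and 23.9 in those of EMPA–Pre-AMI, and Sham, at 46.01, 44.2, 35.04 and 36.8, lay with Control-AMI (-0.86 ± 0.21, SE; FDR 0.0242). It was among the smallest falls, but one with little spread. Ryr2, the calcium release channel of heart muscle, was at 31.7, 19.8, 87.6 and 87.8 CPM in the Control-AMI libraries and at 12.9, 18.4, 23.8, 22.2 and 14.4 in those of EMPA–Pre-AMI (-1.62 ± 0.39, SE; FDR 0.0418). It was the 1 cardiomyocyte marker of 13 that passed, and all 13 were below 0, with a median of -1.06, beside the summed marker levels given above. Their part in the fall of Ryr2 was not tested. The 2 others, Chpt1 (phosphatidylcholine synthesis) and Lbh (a transcription cofactor), named after their values were seen, had log2 fold changes of -0.92 and -0.85.

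Many lists held no significant gene in edgeR's test. Over all genes tested 2.63% were significant, and 0.443% of those not fibroblast-enriched. A count of 0 in lists of this size is near these shares and is no result about the list. For the interferon response the count was 0 of 22, with 5 at an unadjusted p of 0.05. Of the 22, 21 were above 0, and the median of the list was 0.30. The change of scale described below moves all values down by about as much. There were also 0 of 15 NF-kappaB and feedback genes (1 at an unadjusted p of 0.05), 0 of 22 hypoxia genes (1), 0 of 15 genes of the integrated stress response (5), 0 of 18 glucocorticoid-responsive genes (3), 0 of 19 genes of apoptosis and cell cycle arrest (4) and 0 of 9 cell division genes (0). Among 21 immediate early factors Nr4a3 was the single one, and among 14 genes of interleukin-6 signaling Il6ra. A single gene rose in each of 13 junction genes (Cdh5), 15 chemokines and cytokines (Cxcl12), 20 genes of fatty acid handling (Fabp4) and 16 of MHC and antigen presentation (Tap2). Of 12 mural markers none passed (4 at an unadjusted p of 0.05), and of 14 macrophage markers 4 were tested and none passed (2). No lymphocyte marker of 15, and 3 of 12 neutrophil markers, had enough counts to be tested. None of 8 red cell and platelet markers and 5 mesothelial and Schwann markers passed (3 and 2 at an unadjusted p of 0.05). Of 13 genes that the study itself singled out, 8 fell, namely Sdc2, Sod3, Mmp2, Mmp14, Mmp23, Rab7b, Igf1 and Egfr, but that list was chosen on these samples and is not independent evidence of its direction.

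The named target of EMPA was at the floor. Slc5a2, which encodes SGLT2, had 0 counts in each of the 13 EC libraries, which allows up to 1.37 to 2.22 CPM in a library. Slc5a1, which encodes SGLT1, had 3 counts summed over them, 1 in Sham and 2 in EMPA–Pre-AMI.

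The same genes were set beside Sham, with the reservation that both contrasts of the AMI groups use the same Control-AMI libraries and so are not independent. Between Control-AMI and Sham 6.56% of all genes differed. Control-AMI was above Sham at FDR under 0.05 in 171 of the 238 genes that fell with EMPA (4.09% of all genes were above), and below Sham in 18 of the 36 that rose (2.47% of all genes were below). Between EMPA–Pre-AMI and Sham, 3 of the 238 and 8 of the 36 differed, where 2.71% of all genes did (2.08% above and 0.632% below Sham). The 3 were below Sham and the 8 above. Both sets were chosen on the same EMPA–Pre-AMI libraries, which favours differences in these directions, so a change beyond Sham was not tested independently. Rgcc, Slc1a1, Glt28d2 and Sox17 were among these 8. Rgcc, for instance, had means of 64.7, 72.98 and 144 CPM in Sham, Control-AMI and EMPA–Pre-AMI, whereas Stmn2 had 86.7, 43.7 and 94.2.

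The level of fibroblast markers moved with the group, and fits that used it called no gene. With the log2 summed level of the 18 markers as a term, 0 of 10438 genes were significant in edgeR, with 282 at an unadjusted p of 0.05, and the median of fibroblast-enriched genes went from -0.61 to 0.04. Of the 233 that had fallen, 178 kept a negative estimate and 55 did not, and their median went from -2.28 to -0.37. Of the 41 others, 37 kept their direction. The term is built from markers of which 15 are themselves among the 233, so part of the shrinkage of these 15 is built in. The term separates every Control-AMI from every EMPA–Pre-AMI library, as the groups do. It raised the median standard error of the 233 from 0.44 to 0.59 and of the 41 from 0.21 to 0.37. Marker level and EMPA thus cannot be told apart in full in these 9 libraries.

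The label numbering of the libraries also ran with the group. By the running numbers in their descriptions, Control-AMI replicates 1 and 4, which had the most fibroblast marker counts, stood in a stretch with no other EC library. Control-AMI replicates 2 and 3 shared a stretch with EMPA–Pre-AMI replicates 1 to 3. Within that stretch 3 genes were significant, of which C4b and the receptor gene Lrp1 were fibroblast-enriched and fell, and the neutrophil chemokine gene Cxcl2, which did not pass over all libraries (FDR 0.578), was the third. Each of 232 fibroblast-enriched genes that had fallen and could be fitted kept its direction there, at a median of -1.44. So did 41 of the 41 others, at a median of 0.57. These genes were chosen in a fit that includes the same libraries, so a kept direction was favoured in advance and is no separate support. Without Control-AMI replicates 1 and 4, a choice made after seeing the data, 38 genes were significant, all fibroblast-enriched and lower, and 35 of them were among the 233. According to the methods, the RNA libraries of all samples were made and sequenced together, whereas the hearts were processed in 4 to 5 independent experiments per group.

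Single libraries moved the counts too. Without Control-AMI replicate 1, 136 genes were significant, 129 of them fibroblast-enriched, whereas the fit that left out EMPA–Pre-AMI replicate 2 called 399, of which 115 rose. Without Control-AMI replicate 3, the library with the macrophage markers, 338 were significant. The split between higher and lower depended on the scaling. With factors from the endothelial-enriched genes alone, also chosen after seeing the data, the median of all genes moved from 0.02 to -0.28, and of 454 significant genes 4 were higher (Bacc1, Tspan14, Stmn2 and Tap2) and 450 lower, against 36 and 238. The median of endothelial markers was 0.13 on that scale, against a median of -0.28 for all genes. There were 87 falls in other genes, against 5, whereas no fibroblast-enriched gene rose under any scaling tried.

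**Figure D5:**
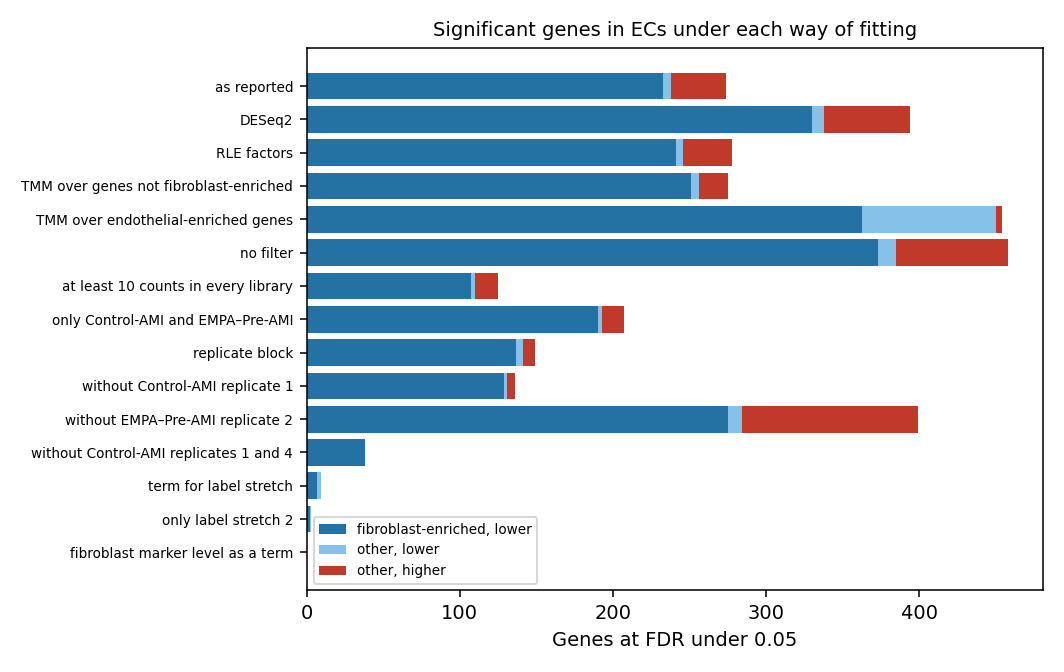
Number of genes at FDR under 0.05 between EMPA–Pre-AMI and Control-AMI ECs (horizontal axis, from 0) under 15 ways of fitting, with fibroblast-enriched genes that fell in dark blue, other genes that fell in light blue and other genes that rose in red. The count is 274 as reported, 38 without Control-AMI replicates 1 and 4, and 0 with the fibroblast marker level as a term.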

How the data were processed

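RNA of sorted cardiac ECs, fibroblasts and cardiomyocytes was sequenced from its 3′ end with QuantSeq FWD libraries. The authors trimmed the reads with cutadapt (version 2.8) and quantified them with Salmon against the GRCm39 transcripts of Ensembl. They deposited estimated counts per gene, which were not normalized and held no molecular identifiers that are stated, so intervals cover counting error only. Gene symbols were found for 35407 of 35682 gene IDs in the reference annotation, and 1 symbol on the lists had no match. Coordinates are from the GRCm39 annotation.

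The expected counts were rounded to whole numbers. In edgeR (version 4.0.16, R version 4.3.3) the 13 EC libraries of Sham, Control-AMI and EMPA–Pre-AMI were fitted together so that they share the estimate of spread, with filterByExpr (minimum count 10), TMM factors and the robust quasi-likelihood test, adjusted by Benjamini-Hochberg over all genes tested (limma version 3.58.1 is loaded by edgeR). CPM of single genes are TMM-scaled, and marker sums and percentages are plain CPM. A joint model with fibroblasts tested whether the EMPA effect differed between the cell types. The 2 hearts in a pool and the sample labels make each library a separate sample, and p-values measure the spread between these samples. EC and fibroblast libraries can come from the same hearts, which the joint model does not take into account. Samples of a group differed by more than sampling noise.

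The members, the 40 gene lists and the tests were chosen with earlier results of these data known. Genes named in the text were, among the significant ones with a mean of at least 10 CPM in the higher group and groups that did not overlap, the 10 largest rises and falls of other genes and the 6 largest falls of fibroblast-enriched genes, and per list up to 4 significant members by FDR together with the genes of the study and the glucose carriers Slc5a2 and Slc5a1. A result that the rule also names is not reported here. Members counted in lists are also named. Alternatives were DESeq2 (version 1.42.0), other scaling factors, filters and limits for the classes, each library left out, a replicate block, terms for the numbering and for marker levels, and, chosen after seeing the data, factors from endothelial-enriched genes and the fit without Control-AMI replicates 1 and 4. The test was tried before use on simulated counts with the same dispersion for all genes and no difference in cell content between libraries. That trial cannot show how the test behaves on libraries as unlike as these.

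Whether numbers shared by Control-AMI and EMPA–Pre-AMI replicates pair them was not settled, and the reported fit does not pair them. The correlation of their deviations from the group means was between 0.035 and 0.142 for the 4 shared numbers. It was between -0.16 and 0.092 for unlike numbers. No source ties a number to a shared day.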

Additional observations from a re-analysis of the deposited data

Results flagged for a closer look

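In 22 of 237 groups of 4 or 5 libraries, 1 library stood further from the rest than Dixon's 95% limit allows, and chance alone gives about 1 such group in 20. EMPA–Pre-AMI replicate 2 stood high for Abca6 (4.33 CPM), Pdpn (46.5), Ptgis (62.7), Serpine2 (80.0), Dcn (854) and Timp2 (888), and low for the summed endothelial markers (16920 CPM). It was the EMPA–Pre-AMI library with the most fibroblast marker counts. Replicate 1 of EMPA–Pre-AMI stood apart for the glutamate carrier Slc1a1 (51.1 CPM), replicate 4 for Dtx4 (0.618 CPM) and for mesothelial and Schwann markers (192.8 CPM), and replicate 3 for red cell and platelet markers (1305 CPM). Control-AMI replicate 1 stood apart for the fibulin gene Fbln5 (124.7 CPM), Slc4a4 (27.2 CPM) and its total of 2195308 counts, and replicate 2 for Rab7b (6.42 CPM). Control-AMI replicate 3 stood high for macrophage and monocyte markers (772 CPM) and for mitochondrial transcripts (14.6% of counts). Of the Sham libraries, replicate 2 stood apart for Serpinf1 (6.18 CPM) and Col5a1 (23.3 CPM), and replicate 1 for C4b (5.90 CPM), Vegfa (58.99 CPM) and Timp1 (2.36 CPM).

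Of 68 named genes tested in ECs, 35 had a log2 EMPA effect there that differed from that in fibroblasts, by edgeR's test of the difference itself. Over all genes in that test the share was 2.09%. Of the 68, 62 were significant in the same EC libraries, so a high share was favoured by how they were chosen. The difference was above 0 for Glt28d2 (3.61) and below 0 for the other 34. For Glt28d2 it exceeded the rise in ECs given above, so it also rests on the fibroblast libraries. Of the 36 genes that rose, 25 were tested in fibroblasts by themselves, with log2 fold changes of -0.97 to 0.66. The fibroblast counts of Glt28d2 were not examined. Among the largest falls it was -4.22 for Emilin2, -3.88 for Inmt, -4.20 for Dtx4, -4.31 for Abca6, -4.30 for Myoc and -3.89 for Htra3. In fibroblast markers and collagens it was -2.33 for Serpinf1, -3.15 for Col6a3, -2.80 for Col1a2, -2.13 for Mfap5, -2.34 for Dcn, -3.28 for Col5a1 and -1.66 for Col8a1. Other matrix genes were at -2.78 (Vcan), -3.23 (Ogn) and -3.10 (Fbln1), and proteases at -3.28 (Mmp2), -2.66 (Mmp23) and -1.92 (Adamts2). Complement genes were at -1.998 (C1ra), -2.96 (C4b), -3.22 (C3) and -2.70 (Serping1). The growth factor system was at -1.12 for Fgfr1, -1.88 for Igf1, -1.53 for Igfbp6 and -3.30 for Egfr. Oxidant defence was at -1.79 (Sod3), -2.96 (Gpx3) and -2.02 (Gpx8), and single genes were at -1.45 (Pdpn), -2.64 (Sdc2), -1.81 (Serpine2) and -2.59 (Rab7b).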

How the results depend on the processing

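No fibroblast-enriched gene was significantly higher in any alternative. The split of other genes did not hold, since 36 were higher and 5 lower as reported, but 4 and 87 with factors from endothelial-enriched genes, 0 and 2 with a term for the stretch of label numbers and 0 and 1 within stretch 2. The number of significant genes was 274 (233 fibroblast-enriched and 41 other) and depended on the libraries and on the terms. It was 394 with DESeq2, with 64 other genes. It was 458 without a filter, with 373 fibroblast-enriched and 85 other, and 125 with at least 10 counts in every library, with 107 and 18. Other genes were 24 with scaling over genes that are not fibroblast-enriched and 17 without Sham in the fit. With a term for the stretch of label numbers there were 9 genes, 7 fibroblast-enriched and 2 other, and within stretch 2 there were 3, of which 2 and 1. With the fibroblast marker level as a term there were 0 in all, 0 fibroblast-enriched and 0 other, and with macrophage markers as a further term also 0, 0 and 0 (229 at an unadjusted p of 0.05). With factors from endothelial-enriched genes there were 454, of which 363 fibroblast-enriched and 91 other, and without Control-AMI replicates 1 and 4 there were 38, of which 38 and 0. The causes of these shifts were not tested, other than that fewer libraries or genes entered some fits.

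Leaving out 1 library at a time gave between 136 and 399 genes, between 129 and 313 fibroblast-enriched genes and between 7 and 124 other genes, and between 151 and 330 for the difference between ECs and fibroblasts. The lowest of all 4 were without Control-AMI replicate 1. Without Control-AMI replicate 4 there were 173 genes, and without EMPA–Pre-AMI replicates 1, 3, 4 or 5 between 142 and 160. The highest were without EMPA–Pre-AMI replicate 2 for all and for other genes and without Control-AMI replicate 2 for the rest. Other genes were 66 without Control-AMI replicate 3, 21 without its replicate 4, 23 without Sham replicate 4 and 8 to 16 without EMPA–Pre-AMI replicates 1, 3, 4 or 5.

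The replicate block, which treats the numbers as pairs, gave 149 genes, 137 fibroblast-enriched and 12 other, of which 143 were among the 274, and 198 for the difference between ECs and fibroblasts. Not every sample correlated best with its own number, and no source says that a number is a shared experiment.

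Of 62 significant genes that the naming rule chose, 19 changed sign in at least 1 alternative, in each case a fit with marker levels, and none was significant in every alternative. With the fibroblast term the log2 fold changes that turned were Cdh5 -0.17, Cxcl12 -0.10, Fbln5 0.0085, Ptgis 0.15, Serpine2 0.19, Igf1 0.0295, Igfbp6 0.26, Igfbp4 0.15, Adamts2 0.0569 and Mmp14 0.12. Outside the rule, significant list members that also turned with this term included Efemp1 (0.808), C1s1 (0.448), Col6a1 (0.443), Lum (0.282), Nid1 (0.253) and Col6a2 (0.224). Fbn1 (0.182), Fstl1 (0.112), Col5a2 (0.105) and Pcolce (0.049) turned as well. Lum, Fstl1 and Pcolce are among the markers summed in the term. With macrophage markers added, genes of the rule that turned were Fabp4 -0.0247, Cdh5 -0.0681, Sox17 -0.0806, Cxcl12 -0.20, Serpinf1 0.20, Mfap5 0.10, Il6ra 0.38, Ptgis 0.11, Serpine2 0.13, Fgfr1 0.13, Igf1 0.33, Igfbp6 0.41, Igfbp4 0.33, Mmp14 0.0323, Serping1 0.10, Slc4a4 0.71 and Egfr 0.0064. Depth limits genes with few counts, such as Bacc1 and the genes at 1 to 10 counts in EMPA–Pre-AMI libraries.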
